A study of Homo sapiens with 3 samples.

Results

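The comparison set cells carrying wild-type TRAF7 against cells carrying an empty vector. Both were HEK293T cells, an established line from human embryonic kidney that carries the SV40 large T antigen. One array came from cells with a lentivirus holding pCDF1-TRAF7 wildtype and the other from cells with the empty pCDF1 vector, so these are 2 of the 3 arrays of the study. Both populations were kept in puromycin to select stable carriers and were growing asynchronously in serum when RNA was taken. The remaining array, of cells with the TRAF7 G536S mutant, entered the filter on low values and the choice of the brightest probe set. It also entered quantile normalization and cyclic loess, which were run on all 3 arrays. Its level is given beside the other two where it helps to read them. The cells keep their own TRAF7 gene in every group, and the labels do not say whether the selected cells were a pool or a clone.

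Each group has 1 array. What separates 2 arrays can come from culture, extraction or hybridisation as much as from the vector, these cannot be told apart, and no p-value or standard error can be given. Values are log2 intensities per probe set, and a difference is the log2 value with wild-type TRAF7 minus that with the empty vector, so that 1.00 is 2-fold. The comparison covers genes read by a probe set that names 1 gene, with the brightest probe set taken where a gene has several. This gave 22395 genes from 53617 probe sets. Of them, 11198 genes had a mean over the 3 arrays at or above the median of 1.21 and were compared, 10077 of them protein-coding. The genes next to that limit were DENND2B and HSPE1P22 on the inside, with differences of 0.07 and -0.19, and C16orf54 and ZNF23 on the outside, with 0.14 and 0.04.

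TRAF7 joins a RING finger, the mark of many ubiquitin ligases, to WD40 repeats. It was found as a partner of the MAP kinase kinase kinase MEKK3, which activates the JNK, p38 and ERK5 cascades, and it is mutated in a share of meningiomas. Signals through such cascades act on immediate early genes, which need no new protein to be transcribed. These include JUN, a subunit of the AP-1 factor, RHOB, a short-lived small GTPase of endosomes and the cytoskeleton, and DUSP1, a phosphatase that switches MAP kinases off.

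The only TRAF7 probe set (16815001) was read at 5.66 on the empty vector array, 8.11 on the wild-type array and 7.35 on the G536S array. The wild-type array was the highest and lay 2.46 above the empty vector, which is 5.49-fold. Of 10 TRAF family genes passing the filter, TRAF7 was the only one 1.5-fold apart, against 5.42% of all genes higher and 1.79% lower. At those shares a list this short can hold no other. TRAF6 differed by -0.03 and TRAF3 by 0.06. HEK293T cells are known to carry neuronal filaments, and the genes INA (6.25 and 5.91, empty vector first) and NEFL (6.01 and 6.26) and the cadherin CDH2 (4.54 and 4.62) were well above the filter on both arrays. Of 20 measured neuronal markers 9 passed the filter. Of 24 epithelial adhesion and keratin genes 9 passed, among them the desmosome gene DSP (6.82 and 6.65). Of the keratin genes, KRT18 passed, with a difference of -0.07, and KRT8 did not (0.98 and 0.85). Of 18 kidney markers 7 passed, SIX2 and EYA1 among them, with PAX8 below the filter. Of the markers of other cell types, 3 of 20 measured leukocyte genes, 4 of 16 endothelial genes and 3 of 13 fibroblast genes passed the filter. The defining markers PTPRC, CDH5 and COL1A2 did not, while the collagen gene COL1A1 did, at 2.59 and 2.60.

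At least 2-fold higher with wild-type TRAF7 were 89 of the 11198 genes, or 0.795%, and 18 genes were at least 2-fold lower, or 0.161%. Counting from 1.5-fold, 607 genes (5.42%) lay on the higher side and 201 (1.79%) on the lower. Among protein-coding genes alone these shares were 0.705% and 0.0794% at 2-fold, 5.07% and 1.57% at 1.5-fold, and 62.9% lay above 0. Of all genes compared 62.6% lay above 0, and the median gene differed by 0.08. This lean to higher values depends on scaling: higher genes were 83.2% of those 2-fold apart, but 58.2% after quantile normalization, which moved the median gene by -0.11, and 63.0% after cyclic loess. At the 1.5-fold level the higher share was 75.1%, against 47.5% and 51.3%. List medians are therefore given beside the median of all genes. The genes just past 2-fold were SLC44A5, FUNDC1 and SF3B6 on the higher side, from 1.00 to 1.01, and RBFOX3, NAT8L and AP5B1 on the lower side, from -1.02 to -1.07. TBC1D32, SNORD1B and CNTFR, from 0.99 to 1.00, and IFITM3, ALDH1B1 and TIGD5, from -0.96 to -0.99, lay just short of it.

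**Figure D1:**
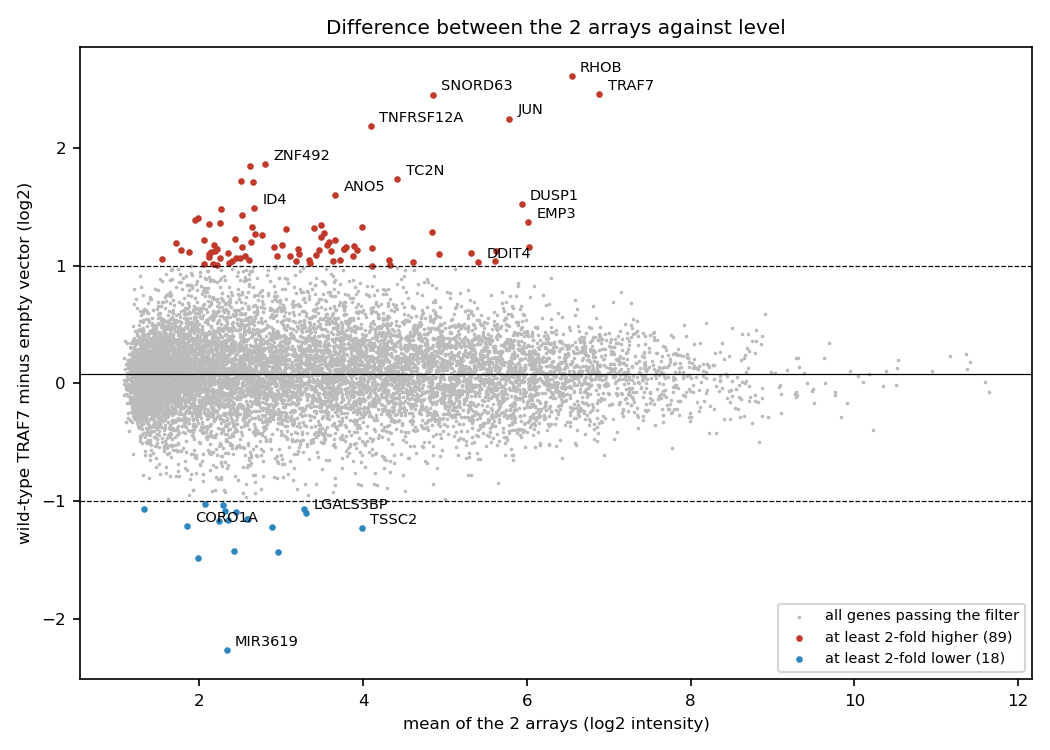
Each point is 1 of the 11198 genes, with the mean log2 intensity of the wild-type TRAF7 and empty vector arrays on the x axis and their log2 difference on the y axis; dashed lines mark 2-fold and the solid line the median of 0.08. RHOB, TRAF7, SNORD63, JUN and TNFRSF12A stand highest and MIR3619 lowest, and red points (89 genes) outnumber blue ones (18 genes).

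RHOB had the highest difference of all genes. The RHOB levels were 5.24 with the empty vector, 7.85 with the wild type and 5.60 with G536S, so the wild-type array alone was high. The difference of 2.61 is 6.12-fold, and it was between 2.51 and 2.64 under the rescalings tried. Of 15 cytoskeletal targets of SRF, a factor that responds to actin, that passed the filter, none was 1.5-fold apart. Over all genes 5.42% were higher and 1.79% lower at that level, so a list of this size can hold none. VCL, which couples integrins to actin, differed by 0.12 and SRF by -0.10.

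JUN stood at 4.66 with the empty vector, 6.91 with the wild type and 4.98 with G536S. Again only the wild-type array was high, with a difference of 2.25 or 4.75-fold. FOSL1, a partner of JUN in AP-1, went from 1.38 to 2.29 (0.91), and ATF3, a stress-induced relative, from 1.28 to 2.03 (0.75). The remaining AP-1 subunits passing the filter stayed near the median: JUND differed by 0.20, ATF2 by 0.00 and JUNB by -0.12, and FOS was below the filter on every array (0.98 and 0.93). In all, 3 of 10 AP-1 genes passing the filter were at least 1.5-fold higher and none lower, against 5.42% and 1.79% of all genes. Of 18 immediate early genes outside AP-1 that passed the filter, 2 (11.1%) were at least 1.5-fold higher and none lower, the zinc finger factor KLF6 (3.69 and 4.52) and the matricellular gene CCN1 (1.22 and 1.82). For CCN1 the difference of 0.60 became 0.55 with quantile normalization and 0.54 with cyclic loess, short of 1.5-fold. EGR1 (-0.16), IER2 (-0.23) and MYC (-0.21) lay a little below 0, and the list median was -0.06.

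DUSP1 stood at 5.17 with the empty vector, 6.70 with the wild type and 4.33 with G536S. The wild-type array was highest and the G536S array lowest, and wild type lay 1.52 (2.87-fold) above the empty vector. DUSP14, a small phosphatase of the same family, was 0.74 higher. Of 13 family members, 8 passed the filter. The targets of ERK in this family, DUSP4 (0.99 and 0.80), DUSP5 (0.84 and 0.82) and DUSP6 (1.09 and 1.04), were near background on both arrays. DUSP19, another phosphatase with this fold and not in the list, was among the 30 highest genes, at 1.59 and 2.76.

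The stretches before the start of these genes are shown because JUN, DUSP1, KLF6 and ATF3 are known targets of the factors that MAP kinases act on. Each is the 250 bases before the start in the RefSeq promoter table of GRCh38.p14, on the gene's own strand; ATF3 has 2 starts in that table and the first is shown. Capitals mark matches to TGACGTCA (the CRE), TGACATCA (the variant known from the JUN promoter), CCAAT and TATAAA, searched on both strands. The regions are chr2:20446824-20447073 (+) for RHOB, chr1:58784048-58784297 (-) for JUN, chr5:172771196-172771445 (-) for DUSP1, chr10:3785210-3785459 (-) for KLF6 and chr1:212565157-212565406 (+) for ATF3.
RHOB: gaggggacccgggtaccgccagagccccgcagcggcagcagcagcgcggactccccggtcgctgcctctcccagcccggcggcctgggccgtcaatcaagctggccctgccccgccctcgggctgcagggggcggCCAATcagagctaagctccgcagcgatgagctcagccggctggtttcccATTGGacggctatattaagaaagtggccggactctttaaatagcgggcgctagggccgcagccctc
JUN: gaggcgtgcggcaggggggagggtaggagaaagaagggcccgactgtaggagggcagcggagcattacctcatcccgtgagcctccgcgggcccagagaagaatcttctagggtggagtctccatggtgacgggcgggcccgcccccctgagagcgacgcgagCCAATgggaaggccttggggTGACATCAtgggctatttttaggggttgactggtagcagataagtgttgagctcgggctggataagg
DUSP1: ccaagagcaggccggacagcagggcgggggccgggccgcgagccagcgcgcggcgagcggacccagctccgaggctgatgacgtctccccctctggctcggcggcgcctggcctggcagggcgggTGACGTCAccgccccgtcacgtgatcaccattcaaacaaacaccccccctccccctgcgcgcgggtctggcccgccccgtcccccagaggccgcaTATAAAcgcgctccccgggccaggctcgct
KLF6: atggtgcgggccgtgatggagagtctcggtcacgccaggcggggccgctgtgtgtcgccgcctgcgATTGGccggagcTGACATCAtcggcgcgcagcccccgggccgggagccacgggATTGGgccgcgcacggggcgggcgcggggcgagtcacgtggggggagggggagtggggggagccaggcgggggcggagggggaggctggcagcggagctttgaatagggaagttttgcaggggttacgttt
ATF3: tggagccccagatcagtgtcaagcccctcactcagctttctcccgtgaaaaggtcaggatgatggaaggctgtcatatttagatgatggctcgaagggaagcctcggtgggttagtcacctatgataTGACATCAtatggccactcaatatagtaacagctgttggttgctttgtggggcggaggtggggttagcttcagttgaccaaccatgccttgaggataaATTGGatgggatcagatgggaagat

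TGACATCA stands in the windows of JUN, KLF6 and ATF3, ending 60, 165 and 116 bases before the start. TGACGTCA stands in that of DUSP1, ending 118 bases before it, and RHOB holds CCAAT on both strands. Few of the higher genes held these letters. TGACATCA was found before 6 of 433 protein-coding genes at least 1.5-fold higher (1.39%), 1.12% of the 8457 passing the filter with a window, and 2.45% of the 27305 windows in the table. TGACGTCA gave 1.62%, 3.20% and 1.77%. The consensus AP-1 site TGACTCA gave 2.77%, 2.08% and 4.16%. A match is a description of the letters and not of a bound site.

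TNFRSF12A, the receptor for the cytokine TWEAK, stood at 3.01 with the empty vector, 5.19 with the wild type and 3.63 with G536S. Its difference of 2.18 is 4.54-fold. Of 27 measured genes of the receptor family, counting 2 ligands, 10 passed the filter, and the remaining 9 differed by -0.18 to 0.38. The death receptor gene TNFRSF10B differed by 0.14 and TNFRSF1A, the main TNF receptor, by 0.16. Of 11 NF-kB components and targets passing the filter none was 1.5-fold apart, against 5.42% of all genes higher and 1.79% lower. At those shares a list this short can hold none. NFKB1 differed by 0.06, RELA by -0.07 and NFKBIA, the inhibitor that NF-kB itself induces, by 0.29.

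Of the MEKK3-ERK5 genes and their targets, 4 of 13 passing the filter were at least 1.5-fold higher, against 5.42% of all genes, and none was lower. They were RHOB and KLF6, described above, the protease gene ADAMTS1 (3.87 and 4.62) and MAP2K5, the kinase that activates ERK5 (1.52 and 2.16). The MAP2K5 difference of 0.63 was below 1.5-fold after quantile normalization (0.53) and cyclic loess (0.55), which left 3 genes. MAP3K3, the gene of MEKK3, differed by -0.19, MAPK7, the gene of ERK5, by 0.24 and the ERK5 target KLF2 by -0.16. The list median was 0.24 and remained above that of all genes by 0.15 under quantile normalization and cyclic loess. RHOB was put into this list with its value known. Among 22 MAP kinase cascade kinases passing the filter, MAP2K5 was the only gene 1.5-fold apart (4.55%, against 5.42% of all genes higher). That call did not remain after either rescaling. MAPK8, the gene of JNK1, differed by 0.06.

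RASGRF2, an exchange factor that loads RAS and RAC with GTP, was read at 2.33, 3.49 and 2.10 in the order empty vector, wild type and G536S, so that wild type stood alone. RRAS2, a RAS relative, was 0.67 higher, but 0.55 after quantile normalization and 0.58 after cyclic loess, short of 1.5-fold. Of 10 genes that report ERK activity and passed the filter, 2 were at least 1.5-fold higher and none lower, against 5.42% and 1.79% of all genes. They were FOSL1 (0.91) and SPRY1, a feedback inhibitor of receptor signalling (0.97), while SPRY2 differed by -0.01, PHLDA1 by 0.00 and the cyclin gene CCND1 by -0.27. ETV4, ETV5 and SPRY4 were below the filter. Of 17 YAP/TAZ targets and factors passing the filter, CCN1 and FJX1 were the 2 past 1.5-fold (11.8%, against 5.42% of all genes higher). Neither was after quantile normalization or cyclic loess, where FJX1 stood at 0.47. YAP1 differed by -0.07, LATS2 by -0.14 and TEAD1 by 0.28, and CCN2 and ANKRD1 were below the filter.

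ANXA1, which binds membranes and phospholipase A2, was read at 1.69 with the empty vector, 3.54 with wild type and 1.91 with G536S. Of 7 annexins passing the filter it was the only one 1.5-fold apart, against 5.42% of all genes higher and 1.79% lower. ANXA2 was at 0.06 and ANXA5 at 0.34. VAMP4, a SNARE of the trans-Golgi network, went from 1.80 to 3.23, ANO5, an anoctamin of muscle and bone, from 2.86 to 4.46, and EMP3, a small membrane protein, from 5.33 to 6.70. G536S lay between the other arrays for all 3, at 2.79, 4.29 and 5.96. TC2N, a protein with C2 domains, went from 3.55 to 5.28, PRRG4 from 1.97 to 3.30, and the transporter SLC60A2 from 4.20 to 5.48. Among 31 SNARE genes passing the filter, 3 (9.68%) were at least 1.5-fold higher, against 5.42% of all genes: VAMP4 and the endosomal syntaxins STX7 (0.67) and STX12 (0.66). After quantile normalization or cyclic loess VAMP4 alone remained past 1.5-fold.

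ID4, which blocks basic helix-loop-helix factors, was read at 1.93, 3.42 and 3.53 in the order empty vector, wild type and G536S. Its relatives did not share this: ID1 differed by 0.07, ID2 by -0.55 and ID3 by -0.33. SOX7, an endoderm and vessel factor, went from 1.28 to 2.68, CREB5, a CRE-binding factor, from 2.74 to 4.06, and SAP30L, of the SIN3 repressor complex, from 1.25 to 2.63. The zinc finger genes ZNF492 (1.87 and 3.74) and ZNF431 (2.13 and 3.39) both lie on chromosome 19. Of 142 named ZNF genes on that chromosome, 14 were at least 1.5-fold higher and 3 lower, against 5.07% and 1.57% of protein-coding genes. Their median was 0.16. Neighbours of this kind can share probe sequence, which was not tested.

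The rest of the 30 highest genes have varied roles. FAM72D, one of several near-identical copies and so uncertain, was 1.71 higher, and FANCL, the ligase subunit in Fanconi anaemia DNA repair, 1.17 higher. CRABP2, which carries retinoic acid, was 1.36 higher, PPP2R5A, a regulatory subunit of the phosphatase PP2A, 1.31, and GNG12, a G protein gamma subunit, went from 2.03 to 3.23. Of genes acting on microtubules, KIF5C, a kinesin heavy chain, was 1.27 higher and MAP7, which recruits kinesin, 1.25. The autophagy protease gene ATG4C was 1.21 higher, ACTR6 of the SRCAP chromatin complex went from 2.98 to 4.18, and TFB1M, which methylates mitochondrial ribosomal RNA, was 1.17 higher. NUP62CL was 1.28 higher. For FANCL the G536S array stood at the level of wild type (4.21 and 4.15), while for CREB5 it lay nearer the empty vector (3.22 and 2.74).

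**Figure D2:**
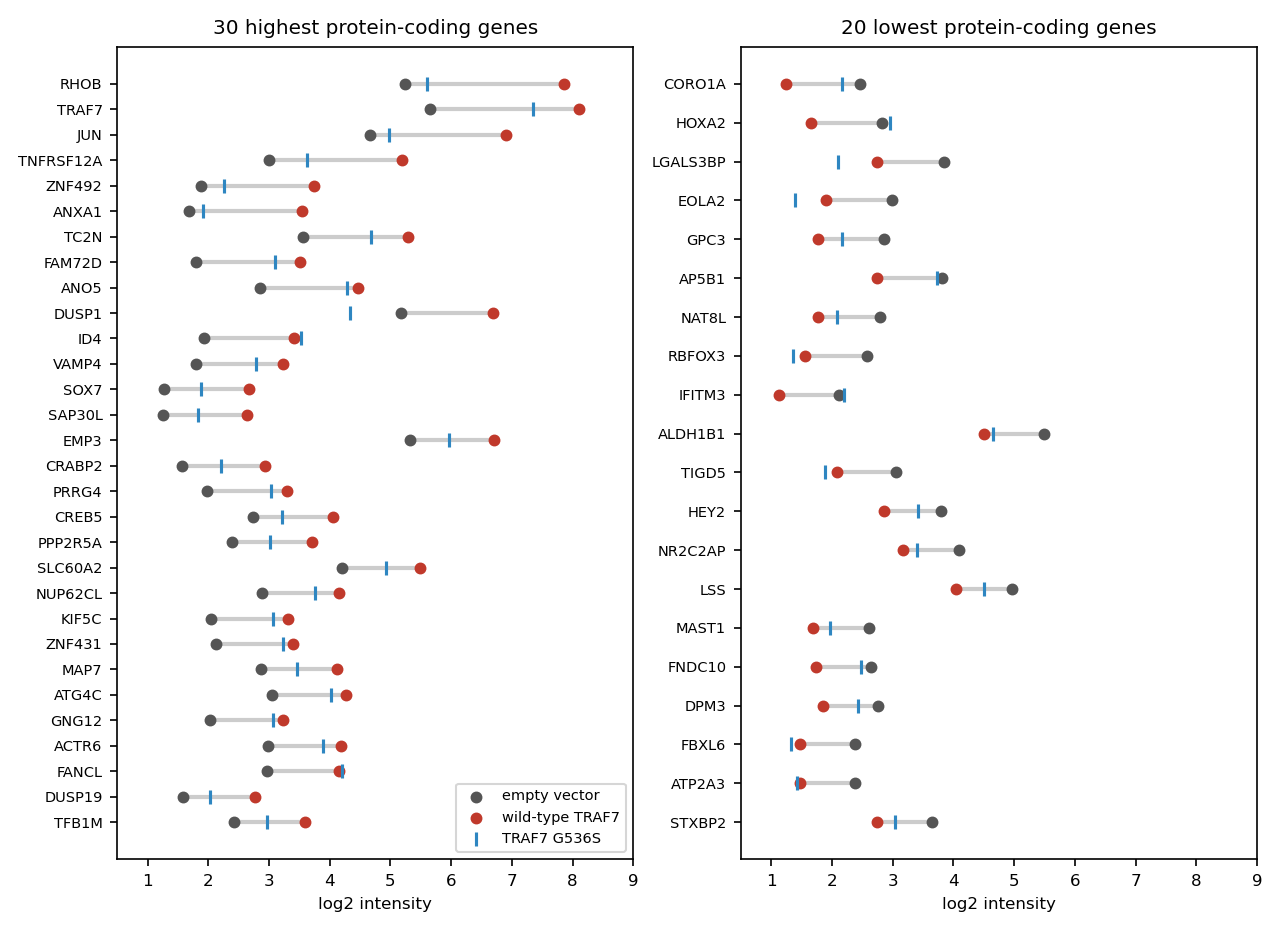
Log2 intensity of the 30 protein-coding genes with the highest and the 20 with the lowest difference, 1 row a gene, with grey points for the empty vector, red for wild-type TRAF7 and a blue bar for TRAF7 G536S. RHOB moves from 5.24 to 7.85 while its blue bar is at 5.60, and the DUSP1 and LGALS3BP bars lie below both points.

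Only 8 protein-coding genes were 2-fold lower, and all were dim with wild type, at or below 2.75. CORO1A, an actin-binding protein of leukocytes, was read at 2.46, 1.24 and 2.17 in the order empty vector, wild type and G536S. It is 1 of the leukocyte markers above, of which CD68 (2.41 and 2.46) and CD79A also passed the filter. The log2 values of all 20, with 17 below the filter, summed to 22.4 with the empty vector and 20.9 with wild type. CORO1A alone differed by -1.21. HOXA2, a patterning gene and the only 1 of 11 HOXA genes that was measured, went from 2.82 to 1.65, with G536S at 2.96. GPC3, a heparan sulfate proteoglycan, went from 2.85 to 1.77, and its relative GPC6 from 4.70 to 3.95. Of 25 matrix and proteoglycan genes passing the filter these 2 were the ones at least 1.5-fold lower (8%, against 1.79% of all genes). The matrix gene TNC and the syndecan SDC4, at 3.47 and 4.05, were the 2 higher (8%, against 5.42% of all genes). SDC4 was short of 1.5-fold after quantile normalization and cyclic loess, which left TNC alone on the higher side. AP5B1, an adaptor subunit of late endosomes, went from 3.81 to 2.74 and NAT8L, which makes N-acetylaspartate, from 2.80 to 1.77. EOLA2 (2.99 and 1.90) and the neuronal splicing factor RBFOX3 (2.58 and 1.56) complete the group with LGALS3BP.

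Interferon response genes stood lower as a list. LGALS3BP, a secreted glycoprotein that binds galectins, was read at 3.84 with the empty vector, 2.75 with wild type and 2.09 with G536S. IFITM3, which keeps viruses from leaving endosomes, was read at 2.11, 1.13 and 2.19, so only the wild-type array was low. IFI6 differed by -0.66 and IRF9, a subunit of the interferon-activated factor ISGF3, by -0.59. These were 4 of 13 genes passing the filter, against 1.79% of all genes, and none was 1.5-fold higher. The list median was -0.20 and, set against all genes, lay at -0.25 after quantile normalization and -0.26 after cyclic loess. For IRF9 a second probe set gave -0.20. Classical induced genes of this pathway were at background: IFIT1, ISG15 and MX1 did not pass, and with all 33 measured members the median was -0.04.

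Cholesterol synthesis genes were also lower, though few by much. LSS, which closes squalene epoxide into lanosterol, went from 4.96 to 4.05, and MVD, of the mevalonate pathway, from 3.10 to 2.26. These were the 2 of 22 genes passing the filter at least 1.5-fold apart (9.09%, against 1.79% of all genes lower). Of the 22, 6 were above 0, against 62.6% of all genes. HMGCS1 differed by -0.27, SQLE by -0.20 and DHCR7 by -0.32, while INSIG1, which holds the pathway back, differed by 0.17. The median was -0.16, and its distance from that of all genes was -0.25. FASN, the fatty acid synthase, differed by -0.61 (7.24 and 6.63), with ACLY at -0.15 and SCD at -0.11.

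Of 18 NOTCH pathway genes passing the filter, 3 were at least 1.5-fold lower and none higher, against 1.79% and 5.42% of all genes. HEY2, a repressor induced by NOTCH, went from 3.80 to 2.85, NRARP, a feedback inhibitor, from 5.12 to 4.44, and RFNG, which adds sugars to NOTCH receptors, from 2.27 to 1.66. NOTCH1 differed by -0.53, whereas the targets HES1 (0.02) and HEY1 (-0.05) were level and the ligand JAG1 was at 0.41. The median was -0.05, at a distance of -0.13 from all genes. The lowest 20 protein-coding genes also held ALDH1B1 (5.49 and 4.51), a mitochondrial aldehyde dehydrogenase, NR2C2AP (4.09 and 3.17), STXBP2 (3.65 and 2.75), which binds syntaxins, and DPM3 (2.76 and 1.85), of the dolichol-mannose synthase. TIGD5, MAST1, FNDC10, FBXL6 and ATP2A3, from -0.90 to -0.96, make up the rest.

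ATF4 drives genes for amino acid supply when the kinase GCN2 or PERK is active. Of 24 genes of this response passing the filter, 6 were at least 1.5-fold higher and none lower, against 5.42% and 1.79% of all genes. DDIT4, an inhibitor of mTORC1, was read at 4.89, 5.92 and 4.30 in the order empty vector, wild type and G536S. CHAC1, which degrades glutathione, was read at 2.36, 3.28 and 1.92 in the same order. SLC7A11, the cystine importer, was 0.69 higher, ALDH1L2 0.80, PSAT1 of serine synthesis 0.59 and CTH of cysteine synthesis 0.59. After quantile normalization 4 of the 6 calls remained, with PSAT1 at 0.51 and CTH at 0.45, and after cyclic loess the same 4, with 0.52 and 0.47. Others did not follow: ATF4 differed by 0.08, TRIB3 by -0.35 and SLC7A5 by -0.04, and DDIT3 was at background. The median was 0.25, with 18 genes above 0, and it lay 0.17 above that of all genes, 0.24 after quantile normalization. The window before CHAC1, chr15:40953221-40953470 (+) in GRCh38.p14, is shown because it holds the ATF4 composite site TGATGCAA. The site is read on the other strand as TTGCATCA and ends 202 bases before the start. Of all windows 0.820% hold it. CHAC1 was the only 1 of 433 protein-coding genes at least 1.5-fold higher with it (0.231%), against 0.355% of the 8457 passing the filter. Capitals mark that site and CCAAT.
CHAC1: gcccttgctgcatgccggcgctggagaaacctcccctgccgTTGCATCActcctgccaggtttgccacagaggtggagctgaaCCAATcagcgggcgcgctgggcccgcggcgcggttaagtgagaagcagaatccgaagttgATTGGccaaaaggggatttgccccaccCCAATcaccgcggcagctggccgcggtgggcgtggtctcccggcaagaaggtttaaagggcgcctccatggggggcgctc

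**Figure D3:**
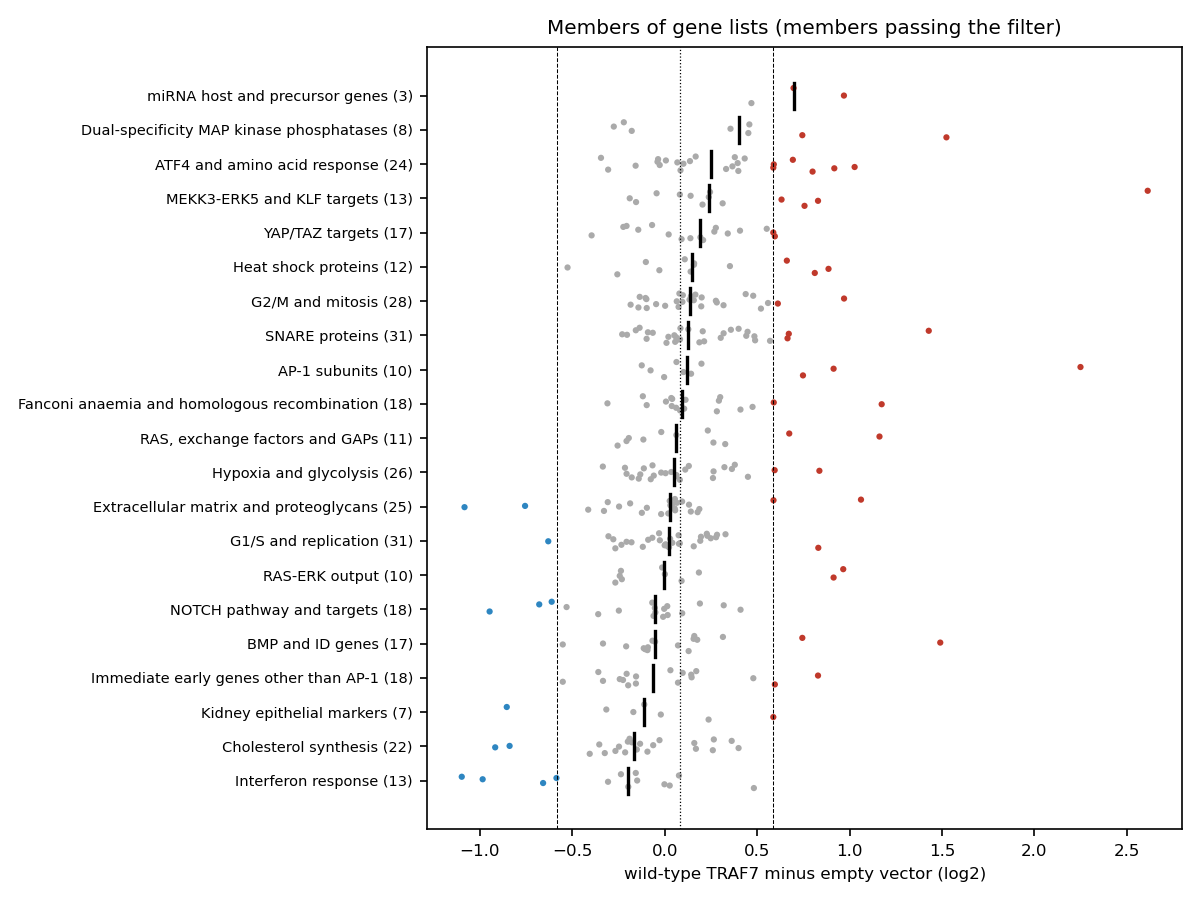
Log2 differences of the members passing the filter in the 21 lists with 2 or more members at least 1.5-fold apart, 1 row a list with its number of members in brackets; red and blue points are past 1.5-fold (dashed lines), the black bar is the list median and the dotted line the median of all genes, 0.08. The interferon and cholesterol lists have the lowest medians, -0.20 and -0.16, and the ATF4 list has 6 red points.

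Genes not recorded as protein-coding numbered 1121 and held 18 of the genes 2-fold higher and 10 of those 2-fold lower. They include 148 genes not matched to RefSeq, whose type is therefore unknown, with 1 of the 18 and 4 of the 10. Of the 10077 protein-coding genes, 71 (0.705%) were 2-fold higher and 8 (0.0794%) lower, which is a smaller share on both sides. SNORD63, a box C/D snoRNA that guides methylation of other RNAs, was read at 3.62, 6.07 and 7.44 in the order empty vector, wild type and G536S. It was followed by RBM26-AS1 (1.66 and 3.37), LINC00648 (1.52 in the empty vector), MIR924HG (1.44 and 2.80), SNORA3B (2.81 and 4.16) and SNORD111 (3.32 and 4.65). Of 116 snoRNA genes passing the filter, 20 were at least 1.5-fold higher (17.2%, against 5.42% of all genes) and 5 lower (4.31%, against 1.79%). Of 409 long noncoding RNA genes passing the filter, 31 were at least 1.5-fold higher (7.58%, against 5.42% of all genes) and 3 lower (0.733%, against 1.79%). Among 13 long noncoding RNAs fixed in a list and passing the filter, none was 1.5-fold apart, and a list this short can hold none. MALAT1 differed by 0.50 and GAS5, a snoRNA host, by 0.57.

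Of 169 microRNA genes passing the filter, 9 were at least 1.5-fold higher (5.33%, against 5.42% of all genes) and 15 lower (8.88%, against 1.79%), with a median of 0.01. MIR221 was read at 4.64 with the empty vector, 5.61 with wild type and 3.36 with G536S. MIR222, its neighbour, was read at 1.76, 2.46 and 1.33. Wild type was the highest and G536S the lowest array for both. The lowest genes of the whole comparison not recorded as protein-coding were MIR3619 (3.47, with a difference of -2.27), IGKV1-37 (2.73 and 1.24, not matched to RefSeq), MIR378I (3.67 and 2.24), MIR574 (3.14 and 1.72), TSSC2 (4.60 and 3.37) and RNY4P23 (3.49 and 2.28, not matched to RefSeq). Whether a probe set of this kind reads the precursor, the host transcript or the mature RNA was not determined. Mature sequences are shown for the neighbouring pair and for the lowest gene, from RefSeq (GRCh38.p14), with the seed, bases 2 to 8, in capitals; miR-221-3p and miR-222-3p share it.
hsa-miR-221-3p: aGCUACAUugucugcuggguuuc
hsa-miR-222-3p: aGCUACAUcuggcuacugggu
hsa-miR-3619-3p: gGGACCAUccugccugcugugg
hsa-miR-3619-5p: uCAGCAGGcaggcuggugcagc

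Gene span differed between higher and lower genes. Protein-coding genes 2-fold lower spanned a median of 8.67 kb where a window was available (7 genes), those 1.5-fold lower 14.2 kb and those 1.5-fold higher 40.5 kb, against 33.5 kb for all 8457. In the shortest of 5 equal bins of genes, up to 10.6 kb, 3.97% were at least 1.5-fold higher and 3.37% lower. Between 45.8 and 98.5 kb these shares were 6.30% and 0.546%. Spearman's rho between span and difference was 0.169 over 8457 genes, which share both arrays. GC content before the start moved less: median GC was 66.4% for genes 1.5-fold lower and 64.8% for those higher, and rho was -0.0949.

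**Figure D4:**
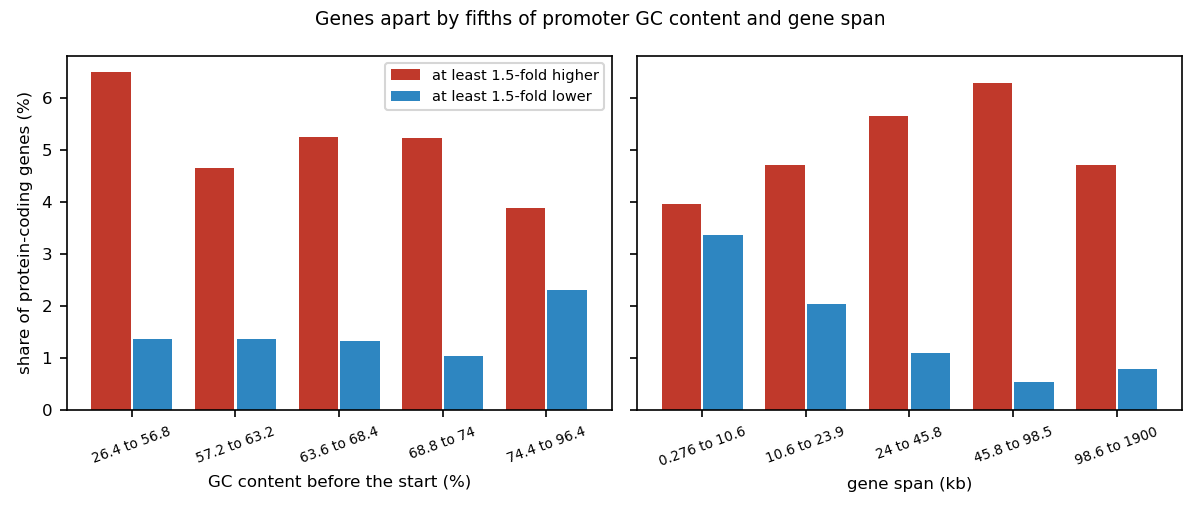
Share of protein-coding genes at least 1.5-fold higher (red) or lower (blue) with wild-type TRAF7, in 5 equal bins of GC content over the 250 bases before the start (left) and of gene span in kb (right). The share of lower genes is 3.37% in the shortest bin, 0.546% between 45.8 and 98.5 kb and 0.794% in the longest bin.

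Level also bears on the counts. In the dimmest of 3 equal bins of genes passing the filter, up to 2.04, 0.268% were 2-fold apart, in the middle bin 2.01% and in the brightest, from 3.98, 0.589%. RHOB, JUN, DUSP1, EMP3 and DDIT4 were above 5.90 with wild type, whereas ANXA1, ID4 and SOX7 were at or below 1.93 with the empty vector. Of 13 genes 1.5-fold apart on the first of 2 probe sets above the filter level, the second pointed the same way in 11 and reached 1.5-fold in 2, so sizes rest mostly on 1 probe set each. The genes named above as highest and lowest have 1 probe set each.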

How the data were processed

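Biotin-labelled cRNA was made from 300 ng of total RNA and hybridised to Affymetrix arrays, per the labels' protocols. The authors deposited log2 intensities per probe set made with RMA (background correction, normalization between arrays and a summary of probes), per the submitters' processing notes; its version is not given in the sources used here, nor a build. Their log base is inferred: the highest value, 12.57, would exceed the 16-bit scanner limit (11.09) as a natural log.

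Gene names came from GEO's annotation of the platform. It lists 25713 of 53617, of which 23871 name 1 gene and 1842 several; 22569 were matched to RefSeq (GRCh38.p14) through the Entrez ID, 90 under a newer symbol, and 1302 kept theirs. With 1 array a group, no test was made. Named genes are TRAF7, the 30 highest and 20 lowest protein-coding genes, the 6 highest and lowest others, genes beside the limits, and, in 53 lists, core members, the 3 brightest and members 1.5-fold apart. Members and lists were chosen with earlier results of these data known. The counting was tested on simulated data. Python 3.11.15, numpy 2.4.6, pandas 2.3.3, matplotlib 3.10.9 and limma 3.58.1 in R 4.3.3 (quantile normalization, cyclic loess) were used. One gene family is not reported here. The number of arrays limits the precision.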

Additional observations from a re-analysis of the deposited data

Results flagged for a closer look

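Among the named genes at least 1.5-fold apart, 4 stood on opposite sides of the empty vector with the 2 constructs, each by at least 1.5-fold. Only the 212 named genes were searched, and the same count over all 11198 genes was not made. DUSP1 differed by 1.52 with wild-type TRAF7 and by -0.84 with G536S. DDIT4 differed by 1.03 and -0.59 in the same order, ADAMTS1 by 0.76 and -0.61, and MIR221 by 0.97 and -1.27. Both differences use the same empty vector array, each group has 1 array, and the difference between the constructs was not tested.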

How the results depend on the processing

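The counts moved by over 1.5 times under 4 alternatives, and the rest kept them within that range. Genes 2-fold higher (89) became 53 after quantile normalization, 58 after cyclic loess and 51 when only genes above the 75th percentile were kept; genes 2-fold lower (18) became 38, 34 and 4, and 8 among protein-coding genes alone. At 1.5-fold, the 607 higher became 347, 366 and 312, and the 201 lower became 383, 347 and 88. The 75th percentile filter kept 5599 of the 11198 genes, so its counts are out of fewer genes. Values were unchanged under that filter and among the 10077 protein-coding genes alone. All 18 lower and 53 of the 89 higher genes remained 2-fold apart after quantile normalization. None of 212 named genes changed by as much as 0.266, the robust spread of all differences, under another scaling, the mean of probe sets or a floor. That limit is wide, since quantile normalization moved the median gene by -0.11 and cyclic loess by -0.09. List members near 1.5-fold, such as CTH and FJX1, fell below it after both. No paired analysis was possible because each group has 1 array. That number, and the dim level of most genes, limit every value.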

Other observations

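Other lists held 1 to 3 genes past 1.5-fold, against 5.42% of all genes higher and 1.79% lower. Of 15 clock genes passing the filter, NFIL3, a repressor that the clock controls, was 0.87 higher (1.54 and 2.41), while PER1 differed by -0.42 and BHLHE40 by 0.12. Of 12 heat shock genes, DNAJB4 was 0.89, CHORDC1 0.81 and HSPB1 0.66 higher (HSPB1 0.55 after quantile normalization, short of 1.5-fold), with DNAJB1 at -0.03 and BAG3 at -0.26. NDRG1 (0.84) and P4HA1 (0.59) were the hypoxia genes past 1.5-fold among 26, the latter at 0.48 after quantile normalization, with VEGFA at 0.38. In the cell cycle, the spindle checkpoint gene MAD2L1 was 0.97 higher, CDC25C, which activates CDK1, 0.61 higher (0.45 after quantile normalization) and CCND2, a G1 cyclin, 0.83 higher, whereas E2F2 differed by -0.63 and CCNB1, PLK1 and MKI67 differed by 0.00, -0.14 and -0.10. VIM, the mesenchymal filament gene, was 0.75 higher (4.34 and 5.10). SIX2, a nephron progenitor factor, stood at 3.85 and 2.99 and EYA1, its partner, 0.59 higher (5.47 and 6.06; 0.49 after quantile normalization).

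No member was 1.5-fold apart in 12 of the 53 lists, ribosomal proteins, proteasome subunits, respiratory chain and housekeeping genes among them, with medians from -0.13 to 0.19. Over all genes 5.42% were higher and 1.79% lower at that level, so a short list can hold none. By chromosome, the share of protein-coding genes at least 1.5-fold higher was largest on chromosome 13 (19 of 183, 10.4%) and chromosome 6 (52 of 532, 9.77%), and the share lower was largest on chromosome 19 (28 of 734, 3.81%) and chromosome 16 (17 of 468, 3.63%). Probe sets unnamed here numbered 27904. Of the 7053 at or above the filter level, 508 were at least 2-fold higher and 202 lower. Among the 11198 genes compared these counts were 89 (0.795%) and 18 (0.161%), so unnamed probe sets passed 2-fold more often on both sides.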
